A study of Sus scrofa with 4 samples.

Results

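The genes described here encode the CD3 chains of the T cell receptor complex (CD3D, CD3E, CD3G), the coreceptors CD4 and CD8A, and the surface molecules CD2, CD28, CTLA4 and CD40LG, which regulate whether a T cell that has met antigen becomes activated. They were found on a porcine Agilent microarray as the probes whose deposited identifier is a pig RefSeq transcript of one of the 9 genes. Of these 9, 8 had such a probe and are read here on 12 probes. They belong to 3020 genes that could be named in the same way. CD28 had no named probe and was not analysed here.

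The arrays carried spleen RNA of Minnesota miniature swine. The 4 arrays read here hold 3 samples of wildtype (WT) pigs and 1 of a pig whose label reads IL2RG +/-, called IL2RG KO after the study's own name. Arrays of thymus that the study mentions were not analysed here. IL2RG encodes the common gamma chain of the receptors for interleukin 2 and related cytokines, and 1 of its alleles had been disrupted with a TALEN nuclease in cultured cells that then served as donors for somatic cell nuclear transfer, so the KO animal is a clone of an edited cell. Per the study, the KO animals chosen for arrays were ones that had kept a thymus. Age and sex of the animals are not in the labels, and nothing in the labels says whether the WT arrays came from separate pigs. The p-values of the fit used here rest on the spread between these 3 WT samples, which may be technical.

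A T cell recognises peptide on MHC molecules through a receptor whose own chains have almost no intracellular part. The signal is passed on by CD3 gamma, delta and epsilon, together with CD247, whose tails are phosphorylated by the kinase LCK. CD4 and CD8 bind MHC class II and class I and bring LCK to the receptor. A second, costimulatory signal decides the outcome: CD28 binds CD80 and CD86 on the antigen-presenting cell, CTLA4 binds the same ligands and restrains the response, CD2 binds adhesion ligands such as CD58, and CD40LG engages CD40 on B cells and macrophages. The spleen holds T cells in the sheaths around its arterioles. In pigs, CD2 and CD8A are also carried by NK cells, and outside T cells CD4 is found in several species on monocytes and macrophages.

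Each value below is the log2 signal of a spot relative to the 75th percentile of its array, so that 0 stands for that percentile and 1 unit for a 2-fold difference. A difference is KO minus the mean of the 3 WT arrays unless another pair is named. Of the 48 member spots, 46 were well above background, none was saturated and 0 carried an outlier flag. The scanner software gave an error of at most 16.4% of the signal for these 46 spots. The arrays lay on 2 slides, WT 1 with KO on slide 1 and WT 2 with WT 3 on slide 2, so a difference to WT 1 is free of the slide and a difference to WT 2 and WT 3 is not. Spots well above background made up 66.1% to 72.7% of an array, and the median difference over all 33464 probes tested was -0.11. Macrophage genes that mark splenic red pulp (among them CD5L, VCAM1, HMOX1, C1QA, C1QB and C1QC) and the T cell genes above were well above background on all 4 arrays on their brightest probes. IL2RG itself was lowest on KO on both of its probes. The brighter one read -0.64, -1.49 and -1.48 on WT 1 to WT 3 and -1.98 on KO, and the other -1.18, -2.11, -2.18 and -3.95. Neither difference was called (limma adjusted p = 0.578 and 0.403), and where these probes lie relative to the edited site is not known here.

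The genes of the T cell receptor complex divided by role. All 5 probes of the CD3 chains, from 3 genes, lay inside the range of the 3 WT arrays on KO. By contrast, all 4 coreceptor probes and all 3 probes of CD2, CTLA4 and CD40LG lay above it. Inside the WT range lay 12767 of all 33464 tested probes and 1035 of 2742 named genes. The median difference was 0.25 over the 5 CD3 probes, 1.89 over the 4 coreceptor probes and 1.58 over the 3 probes of the other surface molecules. In all, KO was above every WT array on 7 of 12 member probes, against 27.0% of all tested probes, and below every WT array on 0 of 12, against 34.9%. With a difference of at least 2-fold as well, the counts were 6 of 12 above, against 7.35% of tested probes, and 0 of 12 below, against 11.6%. The 6 include the second CD4 probe, 2 of whose WT spots were not well above background, and the count was 5 of 11 over probes measured on all 4 arrays. By gene, on the brightest probe, KO was above every WT array for 5 of 8 members, against 38.1% of 2742 named genes, and below for 0, against 24.2%. No member probe passed the limma threshold of an adjusted p of 0.05 with a 2-fold difference, and the same was true of 0.0% of all tested probes. Both probes with an unadjusted limma p under 0.05 were higher on KO (CD4 and CD40LG), 2 of 12 member probes against 5.33% of tested probes. By gene this was 2 of 8 members against 10.7% of named genes. With the 2-fold limit only CD4 was left, 1 of 12 probes against 4.46% of tested probes. The 2-fold shares were not taken over named genes. An exact permutation test over 4 arrays cannot give a p below 0.25. In RNA of whole spleen, a difference in the number of cells of a type and a difference in RNA per cell cannot be told apart.

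**Figure D1:**
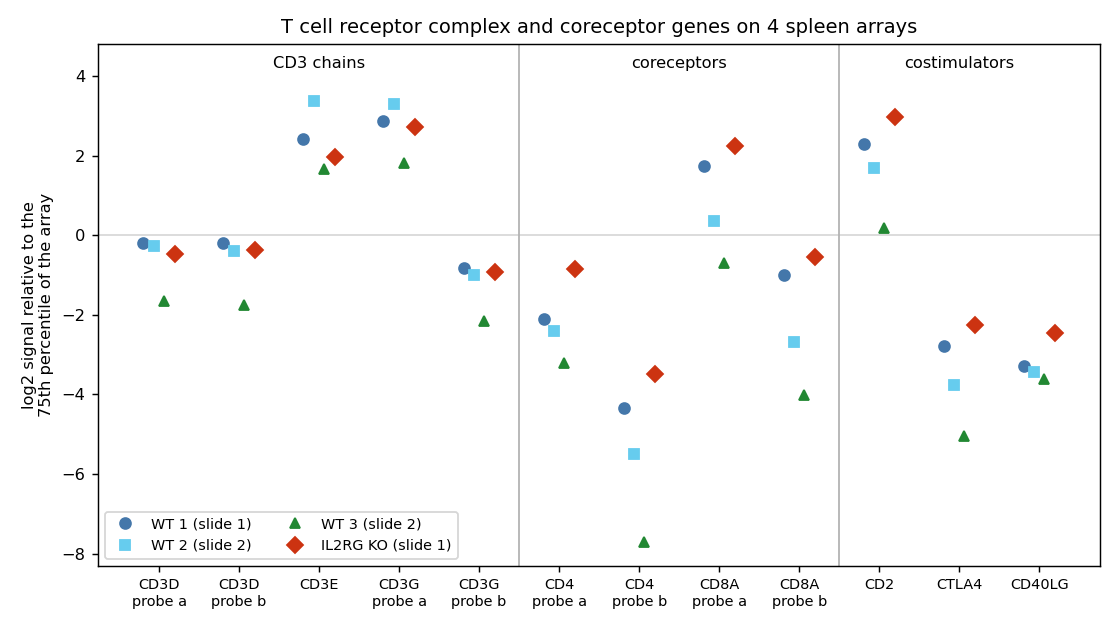
Log2 signal relative to the 75th percentile of each array (vertical axis) for the 12 member probes (horizontal axis, grouped by role), with 1 point per array: circles WT 1, squares WT 2, triangles WT 3 and red diamonds IL2RG KO. For genes with a pair of probes, probe a is the brighter. KO lies among the WT points on the 5 CD3 probes and above them on the other 7, and WT 3 is the lowest WT point throughout.

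CD3E, the epsilon chain that pairs with both other CD3 chains, had values of 2.42, 3.38 and 1.65 on WT 1 to WT 3 and 1.95 on KO. These are processed signals of 3434, 8482, 2573 and 2501. KO lay between WT 3 and WT 1, and the highest array was WT 2. KO differed by -0.53, with a standard error of 0.76, from a WT mean of 2.48 ± 0.86 (SD, n = 3), and the difference was not called (limma adjusted p = 0.789). CD3E was the only member with a lower value on KO than the WT mean.

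CD3G, the gamma chain, had 2.88, 3.30 and 1.80 on WT 1 to WT 3 and 2.73 on KO for its brighter probe. The KO value was thus next to that of WT 1, and the difference from the WT mean was 0.07 (standard error 0.69; limma adjusted p = 0.976). Its second probe, which was dimmer on every array, read -0.82, -1.01 and -2.15 on the WT arrays and -0.94 on KO, a difference of 0.39. Both probes thus placed KO between WT 3 and WT 1, and the gap between them varied by 0.65 over the 4 arrays.

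CD3D, the delta chain, read -0.20, -0.28, -1.64 and -0.46 on WT 1, WT 2, WT 3 and KO for the brighter probe. The second probe gave -0.20, -0.41, -1.75 and -0.36. The pair differed by no more than 0.12 on any array, so their values agreed closely, and on both KO lay with WT 1 and WT 2 and WT 3 stood below. The differences were 0.25 (standard error 0.72) and 0.42 (standard error 0.74), with limma adjusted p of 0.903 and 0.827. On slide 1, KO was slightly under WT 1 on all 5 CD3 probes, by -0.47 for CD3E, -0.15 and -0.11 for CD3G, and -0.27 and -0.16 for CD3D. The sign of the CD3D and CD3G differences therefore depended on which WT arrays KO was set against, while their size stayed inside the WT spread. In the RefSeq annotation CD3D lies directly beside CD3E and directly beside CD3G, with 0 genes between either pair.

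CD4, the coreceptor of helper T cells, was the member with the widest gap between KO and every WT array. Its brighter probe read -2.11, -2.41 and -3.21 on WT 1 to WT 3 and -0.84 on KO, from processed signals of 148, 154, 88.6 and 360. The groups did not overlap, and KO lay 1.27 above the highest WT array. KO was higher by 1.73 (standard error 0.54), a 3.32-fold higher signal against a WT mean of -2.58 ± 0.57 (SD, n = 3). The unadjusted limma p was 0.0327. Adjusted over all 33464 probes it was 0.429, so the difference was not called. The second CD4 probe gave -4.34, -5.50, -7.70 and -3.49. It was well above background only on WT 1 and KO, at 31.6 and 57.5 signal units, so the WT mean rests on 1 measured array of 3, and its difference of 2.36 includes WT values that were not well above background. On the array pair that measured it, KO was 0.85 higher. Within slide 1 the brighter probe put KO 1.27 above WT 1, or 2.40-fold. The fit that holds the slide as a block gave a limma adjusted p of 0.397. CD4 was the only member probe at least 2-fold above WT 1, 1 of 12 against 7.94% of tested probes.

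CD8A, the alpha chain of the coreceptor of cytotoxic T cells, varied more among the WT arrays than CD4 did. Its brighter probe read 1.74, 0.36 and -0.70 on WT 1 to WT 3 and 2.24 on KO, from signals of 2138, 1045, 505 and 3054. KO was highest but only 0.50 above WT 1, while the WT arrays themselves spanned 2.44. The difference to the WT mean of 0.47 ± 1.22 (SD, n = 3) was 1.78 (standard error 1.04), or 3.42-fold, and was not called (limma adjusted p = 0.571). The second probe gave the same order with -0.99, -2.68, -4.01 and -0.55, a difference of 2.01 and a KO value 0.44 above WT 1.

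CD2, an adhesion and costimulatory receptor of T and NK cells, read 2.29, 1.68, 0.17 and 2.97 on WT 1, WT 2, WT 3 and KO, from signals of 3139, 2610, 925 and 5044. KO was the highest array, 0.67 above WT 1. The difference of 1.58 (standard error 0.94), 3.00-fold against a WT mean of 1.38 ± 1.09 (SD, n = 3), was not called (limma adjusted p = 0.572).

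CTLA4, the inhibitory receptor that competes with CD28 for its ligands, was a dim probe with signals of 93.7, 60.2 and 25.0 on WT 1 to WT 3 and 136 on KO. Relative to the 75th percentile these were -2.77, -3.76, -5.04 and -2.24, so the order of the arrays was that of CD8A and CD2. KO was higher by 1.61 (standard error 0.97), or 3.06-fold, and was not called (limma adjusted p = 0.575). KO exceeded WT 1 by 0.53. The spot medians of this probe, before background correction or scaling, were 162, 140 and 98.5 on WT 1 to WT 3 and 195 on KO. With normexp background correction the difference was 0.83, under the 2-fold limit, and 0.25 against WT 1. The annotation places CTLA4 directly beside CD28, the member with no named probe.

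CD40LG, the ligand through which activated helper T cells stimulate B cells and macrophages, had the narrowest WT spread of the members. It read -3.28, -3.43 and -3.61 on the WT arrays and -2.46 on KO, from signals of 65.9, 75.5, 67.3 and 117. The 3 WT values spanned 0.32, KO lay 0.82 above the highest of them, and the software put the error of the single spots at 10.2% to 11.2%. The probe was dim, however. Its spot medians, before background correction or scaling, were 127, 168.5 and 148.5 on WT 1 to WT 3 and 177 on KO. Normexp background correction gave the lowest difference of the processing alternatives, 0.57, and 0.50 against WT 1. KO was higher by 0.98 (standard error 0.29), or 1.97-fold, just under the 2-fold limit. Its unadjusted limma p was 0.0295, the lowest of the members, and its adjusted p was 0.426. Within slide 1 the difference was 0.82 (limma adjusted p = 0.335 with the slide as a block).

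The size of the difference on KO depended on the WT array it was read against. KO was above WT 1, the WT array of its own slide, on the same 7 probes, against 48.2% of all tested probes. For CD8A, CD2 and CTLA4 the within-slide differences were 0.50, 0.67 and 0.53, far smaller than the values against all WT arrays, and with a block for the slide their limma adjusted p were 0.759, 0.766 and 0.787. Against the mean of WT 2 and WT 3 on the other slide, KO was higher by 2.41 for CD8A, 2.04 for CD2 and 2.15 for CTLA4. WT 1 itself exceeded that mean by 1.91 for CD8A, 1.37 for CD2 and 1.63 for CTLA4. The WT array on slide 1 thus stood about as far from the WT arrays on slide 2 as KO stood from the WT mean. For CD4 and CD40LG the gap between WT 1 and the mean of the other WT arrays was smaller, 0.70 and 0.24, beside KO differences of 1.73 and 0.98. Among the WT arrays of slide 2, WT 3 was below WT 2 on all member probes, by 1.73 for CD3E, 1.50 for CD2 and 0.17 for CD40LG. WT 3 was the lowest WT array on 12 of 12 member probes, against 29.2% of all tested probes. Without WT 3, the differences were 1.19 for CD8A, 0.98 for CD2 and 1.02 for CTLA4, and that of CD4 was 1.42. Markers of other cells also differed among the WT arrays. The mean level of 5 granulocyte genes was -1.25, 1.42 and 3.66 on WT 1 to WT 3 and 1.35 on KO, and that of 7 erythroid and platelet genes was 0.10, 3.24, 4.14 and 0.77. By mean level WT 3 was thus the highest array for both lists, and it was the lowest WT array for all members. For the erythroid and platelet genes WT 2 was high as well, so both arrays of slide 2 stood above those of slide 1. Lists also ran the other way. The mean level of 15 interferon response genes was 3.94, 2.62 and 1.55 on WT 1 to WT 3 and 5.46 on KO. That of 8 NK cell genes was 2.27, 1.03, 0.16 and 2.02. The part of these cells and of the interferon response in the member values was not tested.

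**Figure D2:**
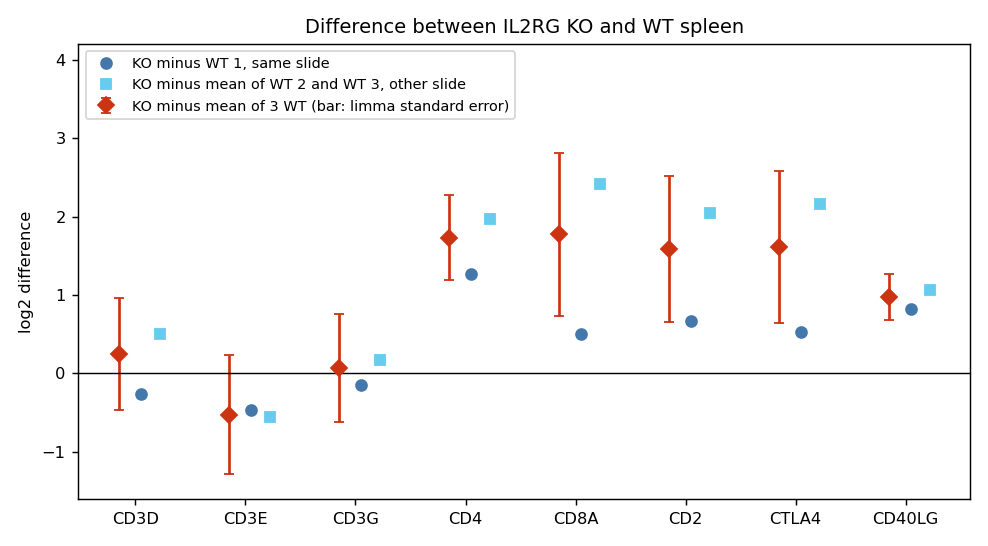
Log2 differences (vertical axis) for the 8 member genes on their brightest probe (horizontal axis). Red diamonds show KO minus the mean of 3 WT arrays with the limma standard error, circles KO minus WT 1 on the same slide, and squares KO minus the mean of WT 2 and WT 3 on the other slide. CD4 (1.73 and 1.27) and CD40LG (0.98 and 0.82) differ less between the comparisons than CD8A, CD2 and CTLA4, and CD8A spans 0.50 to 2.41.

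A constant shift of an array cancels in the difference between 2 members on it. CD3E served as the reference, and only the change of each difference across arrays is read. CD4 minus CD3E was -4.53, -5.79 and -4.86 on WT 1 to WT 3 and -2.80 on KO, so KO stood 2.26 above the WT mean, beside a WT SD of 0.65. CD2 minus CD3E was -0.13, -1.70 and -1.48 on the WT arrays and 1.01 on KO, a shift of 2.11 with a WT SD of 0.85. The corresponding shifts were 2.31 for CD8A, 2.14 for CTLA4 and 1.51 for CD40LG, with WT SDs of 1.20, 1.02 and 0.80. For these 5 genes KO was above every WT array, and against WT 1 alone the shifts were 1.74 for CD4, 0.97 for CD8A, 1.14 for CD2, 1.00 for CTLA4 and 1.29 for CD40LG. Quantile normalisation, which is not a constant shift, gave 2.52 for CD4, 2.55 for CTLA4 and 1.87 for CD40LG, and normexp background correction gave 1.94, 1.43 and 1.16. CD3G and CD3D were also higher relative to CD3E on KO, by the smaller shifts of 0.60 and 0.78, or 0.32 and 0.20 against WT 1. A ratio within an array shows that the genes differed in their change, not which of them was constant, and all 7 values share CD3E, the member that was lower on KO.

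**Figure D3:**
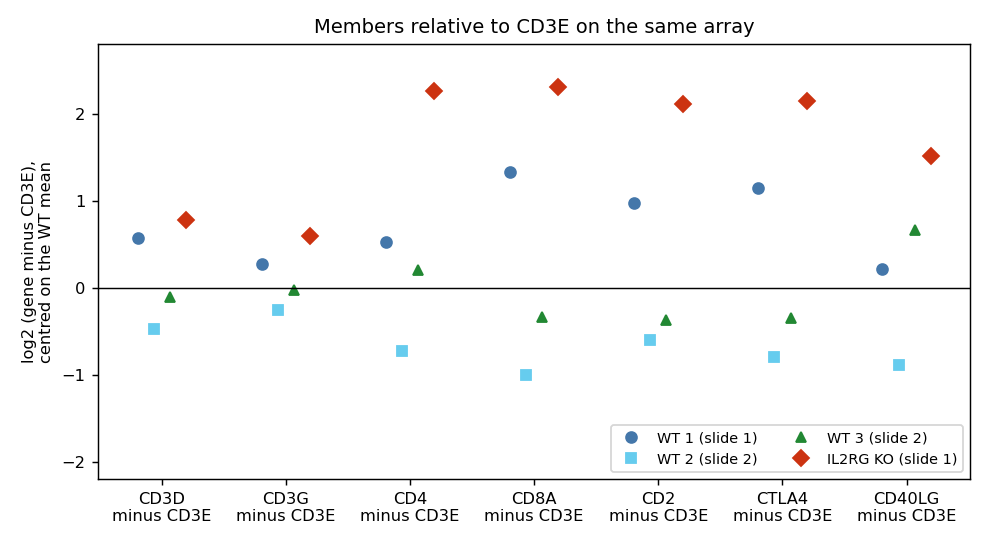
Log2 value of each gene minus that of CD3E on the same array, centred on the mean of the 3 WT arrays (vertical axis), for 7 member genes (horizontal axis), with symbols as for the single probes. KO is the highest array for all 7 genes, from 0.60 for CD3G to 2.31 for CD8A above the WT mean, and WT 1, its neighbour on the slide, is the next highest for all but CD40LG.

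The shape of a gene's values over the 4 arrays was compared with that of 2424 other named genes well above background on all arrays, by the Euclidean distance between profiles that were each centred on their own mean. The profile closest to CD3E was that of LCK, the kinase that phosphorylates the CD3 tails, at a distance of 0.35 beside a median of 1.51. CD3D had NFATC2, a transcription factor activated by T cell receptor signalling, among its nearest 3 (0.33), with CYP4A21 (0.26) and IL12A (0.34). CD3G was nearest to IL12A (0.27), HOPX (0.31) and CYP4A21 (0.33). The nearest to CD8A were ICOS (0.36), a costimulatory receptor of the CD28 family, FADS2 and FAS (both 0.37). FAS, a death receptor, was also the nearest to CD2 (0.22) and to CTLA4 (0.13), followed by CCL3L1 (0.30) and CCR2 (0.46) for CD2 and by CCR2 (0.28) and OAS2 (0.41) for CTLA4. CD4 had TNF (0.13), CHI3L1 (0.15) and ICAM2 (0.22), and CD40LG had NR6A1, TLR3 and CYBA (0.11, 0.11 and 0.12). CD3E further had HSD17B13 (0.44) and XCR1 (0.45). With 4 points per profile these distances are a description only.

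Of 47 listed genes of T cell receptor signalling, 12 had a named probe, all well above background on every array. On KO 7 were higher and 5 lower than the WT mean, 3 lay above and 2 below the WT range, and 0 were called. Neither count exceeds the 38.1% and 24.2% of named genes given above. The list's median difference was 0.21, beside 0.08 over 2742 named genes tested, and its median against WT 1 was -0.03. The 2 genes that left the WT range with a 2-fold difference moved in opposite directions. CD247, the zeta chain that completes the receptor complex, read 4.19, 5.27 and 3.57 on the WT arrays and 3.12 on KO, a difference of -1.23 (limma adjusted p = 0.578), so this chain was lowest on KO. GRB2, an adaptor used by many receptors, read 4.26, 3.83, 3.40 and 4.92, a difference of 1.09 (limma adjusted p = 0.472). LCK itself, at 2.96, 3.50, 1.88 and 2.45, stayed inside the WT range like the CD3 chains.

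The ligands and receptors that share the costimulatory pathways with the members were measured for 12 of 26 listed genes. KO was above the WT mean for 11 of them and above every WT array for 9, beside 38.1% of named genes above every WT array. For 8 of these 9 the difference was also at least 2-fold, beside 7.35% of all tested probes. No 2-fold share was taken over named genes. The list's median difference was 1.42, and 0.86 against WT 1. None was called, while 6 were higher at an unadjusted p under 0.05, beside 10.7% of named genes. CD80 and CD86, the ligands that CTLA4 and CD28 share, were higher by 1.06 and 1.31 (limma adjusted p = 0.430 and 0.411). CD40, the receptor of CD40LG, read 4.93, 4.72 and 4.89 on the WT arrays and 6.51 on KO, a difference of 1.66 (limma adjusted p = 0.332), and 1.58 within slide 1. The PD-1 ligands CD274 and PDCD1LG2 were higher by 3.12 and 3.43 and CD70, the ligand of CD27, by 3.06, with limma adjusted p of 0.410, 0.407 and 0.304. Each of these 3 was more than 2 units above WT 1. ICOS, of the CD28 family, differed by 1.52 but by only 0.02 from WT 1, and LAG3, which binds MHC class II as CD4 does, by 2.66 and 0.93. CD96, a receptor of T and NK cells, was below the WT range with a difference of -1.34 (limma adjusted p = 0.605). CD58, a ligand of CD2, lay within the WT range at a difference of 0.13.

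**Figure D4:**
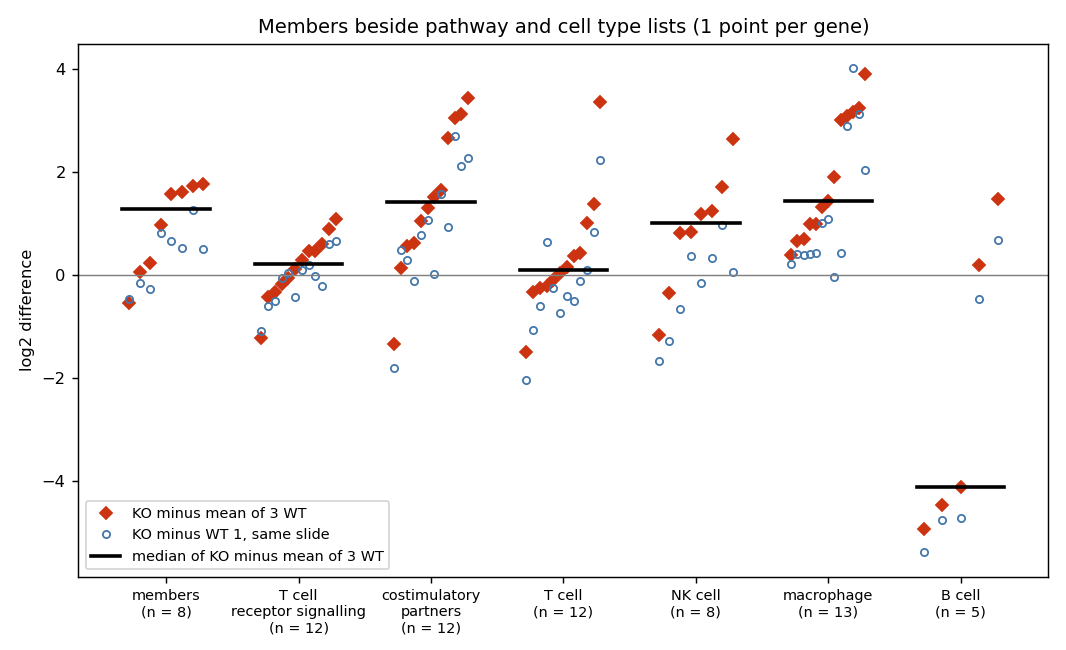
Log2 differences of single genes (vertical axis) for the 8 members and 6 lists of pathway and cell type genes (horizontal axis, with the number of genes measured). Red diamonds show KO minus the mean of 3 WT arrays, open circles KO minus WT 1 on the same slide, and black lines the median of the diamonds. The medians are 0.21 for T cell receptor signalling, 1.42 for costimulatory partners, 0.10 for other T cell genes, 1.01 for NK cell, 1.45 for macrophage and -4.12 for B cell genes.

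Markers of the other cells that could carry these transcripts were read beside the members, and their counts stand beside the same 38.1% above and 24.2% below. The other T cell genes gave no common direction: of 12 measured, 3 were above, 1 below and 8 within the WT range, with a median difference of 0.10. LEF1, a transcription factor of naive T cells, was lower by -1.48, and the chemokine receptor CXCR6 was higher by 1.02. The summed level of this list, on a linear scale where 1 is the 75th percentile, ran from 31.3 to 60.9 on the WT arrays and was 51.1 on KO. FOXP3 and IL2RA of this list were not well above background on every array. Of 8 NK cell genes 4 were above and 1 below the WT range, with a median of 1.01 against all WT arrays but -0.04 against WT 1, and the list summed to 47.3 to 135 on WT and 207 on KO. FCGR3A, which macrophages share, made up 167 of the KO sum, and the other 7 genes summed to 14.0 to 49.9 on WT and 39.1 on KO, inside the WT range, a split chosen after seeing the data. NKG7, GZMA, KIR2DL1 and FCGR3A were above the WT range at differences of 1.24, 2.64, 0.84 and 1.72, GZMA on a probe not well above background on every array, and NCR1, the defining receptor, was below it at -1.16. Of 13 macrophage genes 12 were above the WT range and 0 below, with a median of 1.45, or 0.44 against WT 1, and a sum of 743 to 1333 on WT and 1930 on KO. CD163, CD14 and MRC1, defining markers of that list, were higher by 3.17, 3.08 and 3.25. Of 5 B cell genes 3 were below the WT range, among them MS4A1 with a difference of -4.92 and CD79A with one of -4.12, while CD72 was above it at 1.49 and VPREB1 within it at 0.20, and the list summed to 7.39 to 13.5 on WT and 8.78 on KO. CD72 and VPREB1 made up 8.61 of the KO sum, and the other 3 genes summed to 2.84 to 5.44 on WT and 0.17 on KO. Macrophage genes and 4 of the NK cell genes were thus higher, and 3 B cell genes lower, on the same KO array on which the coreceptor and costimulatory genes were higher, and their part in the values of CD4, CD8A, CD2, CTLA4 and CD40LG was not tested.

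The remaining lists describe the tissue as a whole. Interferon response genes were above the WT mean in 15 of 15 cases with a median of 2.61 (1.23 against WT 1), and proliferation genes below it in 7 of 7 with a median of -1.39 (-0.83 against WT 1). The medians of the granulocyte and of the erythroid and platelet genes changed sign with the WT array, at 0.46 and -1.53 against all WT arrays, 3.17 and 0.07 against WT 1, and -0.98 and -3.22 against WT 2 and WT 3. Medians were 0.23 for 2 dendritic cell genes, -0.01 for 8 stromal genes and 0.26 for 8 control genes, and 0.11, 0.28 and 0.06 against WT 1. Of the gamma delta T cell list 1 gene had a named probe and 0 passed the filter, so those cells were not read here. The share of these lists in the member values was not tested.

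The direction of the coreceptor and costimulatory differences was the same in every processing alternative, and none of them was called in any. The other filters, the eBayes trend and the methods' test alter only the test, not the difference, so they could not change a direction. CD4 ranged from 1.27 to 2.04, CD8A from 0.50 to 2.41, CD2 from 0.67 to 2.04, CTLA4 from 0.53 to 2.15 and CD40LG from 0.57 to 1.22. CD3E was below the WT mean in all of them, between -0.95 and -0.08, while CD3D and CD3G took both signs. The CD3 probes stayed within the WT range under each scaling, except 1 of 5 that lay above it when arrays were shifted to their medians.

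**Figure D5:**
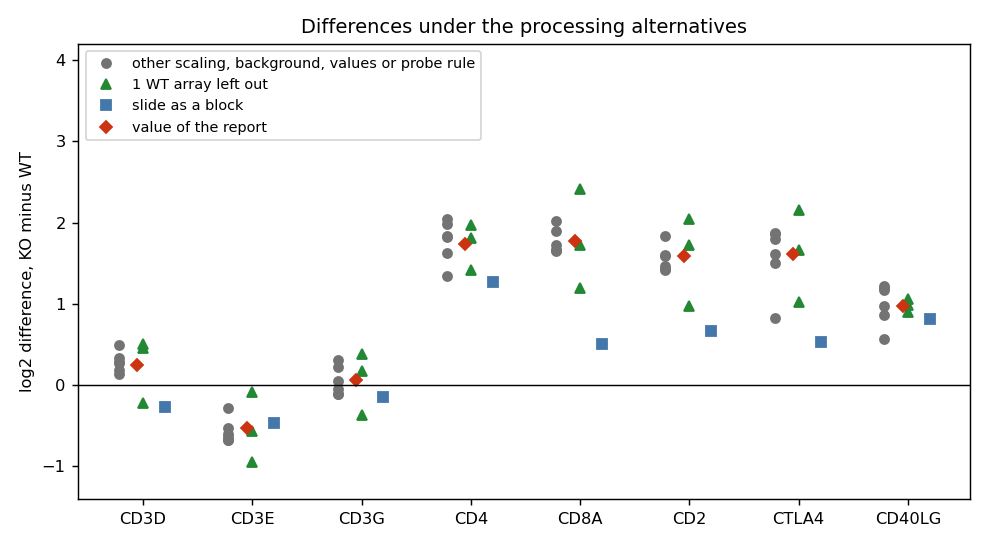
Log2 difference between KO and WT (vertical axis) for the 8 member genes on their brightest probe (horizontal axis) under the processing alternatives. Red diamonds show the value given above, grey circles another scaling, background correction, table of values or probe rule, green triangles a fit without 1 WT array and blue squares the slide as a block. CD4, CD8A, CD2, CTLA4 and CD40LG stay above 0 throughout, CD3E below 0, and CD3D and CD3G fall on both sides.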

How the data were processed

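Spleen RNA of 3 WT samples, not known to be separate pigs, and 1 IL2RG KO pig was measured on one-colour 4x44K porcine arrays. The authors labelled amplified RNA with Cy3, per the labels. The methods of the study speak of a dye pair, whereas the file headers list 1 channel. Per the file headers the intensities were extracted with Agilent Feature Extraction 11.0.1.1. The deposited intensity used here is the background-corrected processed signal, not normalised between arrays. The log2 values in the series table deposited by the authors cover 27421 probes, with sorted columns that differ by at most 0.00154, and served as an alternative only.

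Outlier-flagged spots were left out, log2 signals were shifted to the 75th percentile of each array and spots of a probe were averaged. Probes well above background on at least 1 array were tested, 33464 of 43575, with a filter blind to group. Differences between KO and WT were tested with lmFit and eBayes of limma 3.58.1 (R 4.3.3), two-sided and with Benjamini-Hochberg adjustment over all tested probes. Calls needed an adjusted p of 0.05 and a change of 2-fold. Only the WT arrays inform the spread, with 2 residual and 1.93 prior degrees of freedom in the fit used here, so the single KO array is taken to have the same spread as WT. With the slide as a block, only WT 2 and WT 3 inform it. The number of arrays limits the precision. Python 3.11.15, pandas 2.3.3, numpy 2.4.6 and matplotlib 3.10.9 were used for the rest, and the fit was tested on simulated data.

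Transcript identifiers were matched without versions to RefSeq names of Sscrofa11.1, which gave a symbol for 6686 of 43603 probes (15.3%). The files name no genome build, so no coordinates are given, and no probe sequences were used. The brightest probe on average stands for a gene. Named in the text are all members with all probes, IL2RG, pathway genes outside the WT range by 2-fold, the first-listed markers of other cell types, genes that a member's value bears on and the 3 nearest profiles of each member. Some genes that this rule names are not reported here. The members, lists and tests were chosen with earlier results of these data known.

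Alternatives were quantile normalisation, a median shift, the percentile over probes measured on all arrays, normexp with an offset of 50, the deposited table, other filters, the mean of a gene's probes, the slide as a block, a fit without each WT array, an eBayes trend and the methods' unpaired test of 2 groups. Normexp used the median spot signal, since the files give no mean signal.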

Additional observations from a re-analysis of the deposited data

How the results depend on the processing

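Over 162 alternative values of member differences, 151 kept their sign and 11 took the other, all of CD3D or CD3G, and 0 passed the threshold. The other filters, the eBayes trend and the methods' test left each difference as it was, so its sign could not change there. The mean of probes likewise left genes with only 1 probe unchanged. For CD3G the difference turned to -0.11 with quantile normalisation, -0.044 with the percentile over probes measured on all arrays, -0.11 in the deposited table and -0.15 with the slide as a block. With the slide as a block it was -0.11 for the second CD3G probe, -0.27 for CD3D and -0.16 for the second CD3D probe. Leaving out each WT array in turn gave -0.22 to 0.50 for CD3D and -0.057 to 0.72 for its second probe, and -0.36 to 0.39 for CD3G and -0.021 to 0.64 for its second probe, the lowest each time without WT 3. Member probes with an unadjusted p under 0.05 and a 2-fold difference numbered 1, and 2 with quantile normalisation, the median shift or the deposited table, and 0 with a slide block, the methods' test or the mean of probes. Without each WT array the count ran from 0 to 5, with 5 without WT 1 and 0 without WT 2. Member probes past the adjusted threshold numbered 0 throughout. Of all tested probes, 0 passed it in the fit used here (3172 at an unadjusted p under 0.05 with 2-fold), 4 with normexp and 6 with an eBayes trend, and the unadjusted count ran from 1333 with the methods' test to 7734 without WT 1. The median shift moved the median difference of all probes from -0.11 to 0.14. Of 130 alternative list medians, 14 took the other sign, among them T cell receptor signalling (-0.03), other T cell genes (-0.32) and NK cell genes (-0.04) with the slide as a block. The cause was not tested. Signal over background limits the second CD4 probe, which only WT 1 and KO measured. No paired analysis was possible because there was only 1 KO array.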
